A study of Mus musculus with 3 samples.

Results

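Matricellular proteins are secreted into the extracellular matrix but, unlike fibrillar collagens, act mainly by modulating cell adhesion, growth factor availability and matrix assembly. The 10 genes described here encode periostin (Postn), tenascin C (Tnc), thrombospondins 1, 2 and 4 (Thbs1, Thbs2, Thbs4), the CCN proteins CYR61 and CTGF (Ccn1, Ccn2), SPARC (Sparc), spondin 1 (Spon1) and collagen triple helix repeat containing 1 (Cthrc1). They were chosen by name among 36167 features and were read per pool and nuclear class in nuclei with at least 1000 UMIs (unique molecular identifiers, each standing for 1 captured RNA molecule) and at most 5% mitochondrial UMIs.

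Nuclear RNA was profiled from aortic valve structures of mouse pups at postnatal day 1, of the B6.Cg-Scx<tm1.1(EGFP)Skom strain, which carries an EGFP allele at the gene for the tendon and valve transcription factor scleraxis. There was 1 group of 3 pools, each of 22 to 24 aortic roots, and no wild-type group. The sample labels name no treatment, and the zygosity and sex of the pups are not stated. All comparisons are therefore between classes of nuclei within the same 3 pools, and the SD over pools (n = 3) measures the spread between pools of animals, not between single pups. After filtering, 6313, 3014 and 3588 nuclei remained in pools 1, 2 and 3, with median depths of 4299, 4767 and 3335 UMIs. Pools 1 and 2 shared 99 cell barcodes, pools 1 and 3 shared 59 and pools 2 and 3 shared 44, of which 34, 28 and 13 were among the nuclei kept. In 10 classes named from markers, the valve interstitial-like class held 1475 nuclei, or 10.3%, 12.2% and 12.7% of the 3 pools. It is named after the mesenchymal cells of the leaflets, from genes such as Adamts19, Sox9 and Tbx20. The place of these nuclei in the tissue was not measured. Of the 10 markers, Hapln1, Twist1, Msx1 and Scx did not mark its larger cluster of 989 nuclei. The smooth muscle-like class held 2972 nuclei, the cardiomyocyte-like 2884, the endothelial-like 2668, the fibroblast-like 952 and the mesothelial-like 366. The macrophage-like (277), pericyte-like (127), lymphatic endothelial-like (118) and erythroid-like (72) classes were small, and adipocyte-like (58) and melanocyte-like (72) nuclei and 874 nuclei of 2 unnamed clusters entered no test. The dissected tissue thus held much besides leaflet. The unnamed clusters, led by the cycling genes Neil3 and Diaph3 and by Mylk4 and Col19a1, held 23.6% of all Tnc UMIs and 22.9% of all Ccn2 UMIs, against 15.3% of the UMIs of all genes. The unnamed cluster led by Mylk4 and Col19a1 held 330 nuclei (94, 49 and 187 in pools 1, 2 and 3). Its leading genes Mylk4, Col19a1, Itga8, Kcnab1 and Stac also led the smooth muscle-like cluster named by Mylk4 and Ptprz1 further on. The smooth muscle-like levels below leave this unnamed cluster out.

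In the growing valve and the adjoining aortic root, periostin and tenascin C are deposited by mesenchymal cells, thrombospondins can release latent TGF-beta or bind collagens, and the CCN genes are classic targets of the mechanosensitive coactivators YAP and TAZ, which act through TEAD transcription factors, and of TGF-beta. SPARC binds collagen and calcium, spondin 1 was first found in the floor plate of the neural tube, and CTHRC1 takes part in Wnt signalling through ROR2 and frizzled receptors.

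Because CCN genes are known TEAD targets, the 250 bases before the start of each member were searched on both strands for the TEAD motif GGAATG. RefSeq windows were at hand for 6 of the 10 members (Postn, Tnc, Thbs2, Thbs4, Ccn1 and Sparc). Of these, Ccn1 held 1 match, starting 103 bases before the start, and Thbs4 held 2 overlapping matches, at 197 and 192 bases. No match lay in the windows of Postn, Tnc, Thbs2 and Sparc. Of 32851 RefSeq promoters of the same length, 12.6% held the motif, and a match is a run of letters, not a shown binding site. The 3 windows below (RefSeq, GRCm38.p6, an older build than the GRCm39 of the counts; 5′ to 3′ on the gene's strand; motif in capitals, CATTCC being its reverse complement) are those of Ccn1 and Thbs4, which hold it, and of Tnc, which does not, 3 genes that were all higher in the same valve interstitial-like cluster, as described further on.
Ccn1, chr3:145649986-145650235, minus strand: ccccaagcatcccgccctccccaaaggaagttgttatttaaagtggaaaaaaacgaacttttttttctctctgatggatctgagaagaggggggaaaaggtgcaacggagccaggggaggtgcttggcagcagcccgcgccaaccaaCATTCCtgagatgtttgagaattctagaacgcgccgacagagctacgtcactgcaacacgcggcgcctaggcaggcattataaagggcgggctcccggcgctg
Thbs4, chr13:92794819-92795068, minus strand: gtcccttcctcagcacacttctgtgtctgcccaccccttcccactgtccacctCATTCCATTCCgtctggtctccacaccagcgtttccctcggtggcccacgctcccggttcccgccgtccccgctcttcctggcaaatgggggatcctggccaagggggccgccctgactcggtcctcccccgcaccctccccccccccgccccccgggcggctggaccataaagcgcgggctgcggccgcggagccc
Tnc, chr4:64046937-64047186, minus strand: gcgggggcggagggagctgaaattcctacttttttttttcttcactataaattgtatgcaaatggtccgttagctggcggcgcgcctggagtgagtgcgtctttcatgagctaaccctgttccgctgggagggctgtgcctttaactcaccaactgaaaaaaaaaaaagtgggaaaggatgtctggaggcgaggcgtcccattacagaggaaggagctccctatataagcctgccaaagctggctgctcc
The AP-1 motif TGANTCA, held by 6.75% of all promoters, and the SRF CArG box, held by 1.47%, had no match in any of these members' windows. The short SMAD motif GTCTG, which 42.2% of promoters held, was found in at least 1 window of Postn, Tnc, Thbs2, Thbs4 and Sparc.

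The levels of the members differed strongly between classes, and no class was highest for all of them. Levels are in CPM, the UMIs of a gene scaled to the UMI total of the same pool and class. They were compared between classes for 1 gene, not between genes, since intronic reads and transcript length affect what a nucleus yields. Fewer cells of a type that express a gene and less RNA per cell cannot be told apart in such sums.

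Postn was highest in the valve interstitial-like class, with 3870, 4276 and 3447 CPM in pools 1, 2 and 3, and in the fibroblast-like class, with 3408, 3722 and 2631. These 2 classes overlapped between pools and stood apart from all others, the next being pericyte-like nuclei at 926 ± 279 CPM (SD, n = 3). Endothelial-like (621 ± 31.0), macrophage-like (618 ± 158) and smooth muscle-like (615 ± 49.5) nuclei had nearly the same Postn level. Together, the valve interstitial-like and fibroblast-like classes held 32.3% and 18.9% of all Postn UMIs, against 8.30% and 5.66% of the UMIs of all genes.

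Thbs1, which binds CD36 and CD47 and can activate latent TGF-beta, was highest in valve interstitial-like nuclei, at 523, 616 and 450 CPM. Every pool lay above the lymphatic endothelial-like class, next in order, at 284, 339 and 144 CPM. The class held 44.0% of all Thbs1 UMIs. Thbs4, a thrombospondin best known from tendon and striated muscle, was a rare transcript with 349 UMIs in all the nuclei kept. Its level in valve interstitial-like nuclei was 12.4, 13.2 and 28.7 CPM, above that of mesothelial-like nuclei (12.1, 11.9 and 9.19) in each pool, and no Thbs4 UMI was seen in the 72 erythroid-like nuclei.

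Thbs2 and Sparc, both collagen-binding, had their highest level in the mesothelial-like class, the covering of the heart. Sparc reached 6848, 6998 and 5256 CPM there, against 1524, 1909 and 859 in the fibroblast-like class, next in order, with no overlap. Thbs2 reached 312, 429 and 237 CPM against 183, 236 and 131 in fibroblast-like nuclei. The 366 mesothelial-like nuclei held 36.2% of all Sparc UMIs and 24.7% of all Thbs2 UMIs, with 6.05% of the UMIs of all genes. They also had the deepest median, 10013 UMIs, and 2.89% mitochondrial UMIs; the part of depth in these levels was not tested.

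Spon1 had a class order of its own. Smooth muscle-like nuclei held 611, 607 and 613 CPM, endothelial-like nuclei 529, 443 and 498, and the valve interstitial-like class only 162, 107 and 133. The valve interstitial-like level lay below that of every pool of both.

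Ccn2 was highest in smooth muscle-like nuclei (353, 360 and 212 CPM), which overlapped with valve interstitial-like nuclei (241, 301 and 190). Ccn1 stood at 133, 137 and 96.5 CPM in the valve interstitial-like class and at 86.3, 218 and 75.5 in the small pericyte-like class (84 UMIs in all), which was higher in pool 2 and lower in pools 1 and 3. As a mean over nuclei it was 134 and 116 CPM, and after thinning to 1000 UMIs 9.12% and 4.0% of these nuclei held a Ccn1 UMI, against 3.42% of macrophage-like nuclei. Next came smooth muscle-like nuclei at 72.6, 78.8 and 49.8. Tnc was similar in fibroblast-like (276 ± 52.6), lymphatic endothelial-like (241 ± 41.1), smooth muscle-like (241 ± 13) and valve interstitial-like nuclei (202 ± 69.1), and these 4 classes overlapped with one another. Cthrc1 was highest in fibroblast-like nuclei, at 191, 153 and 96.8 CPM, which overlapped with the endothelial-like class at 112, 94.1 and 57.1.

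**Figure D1:**
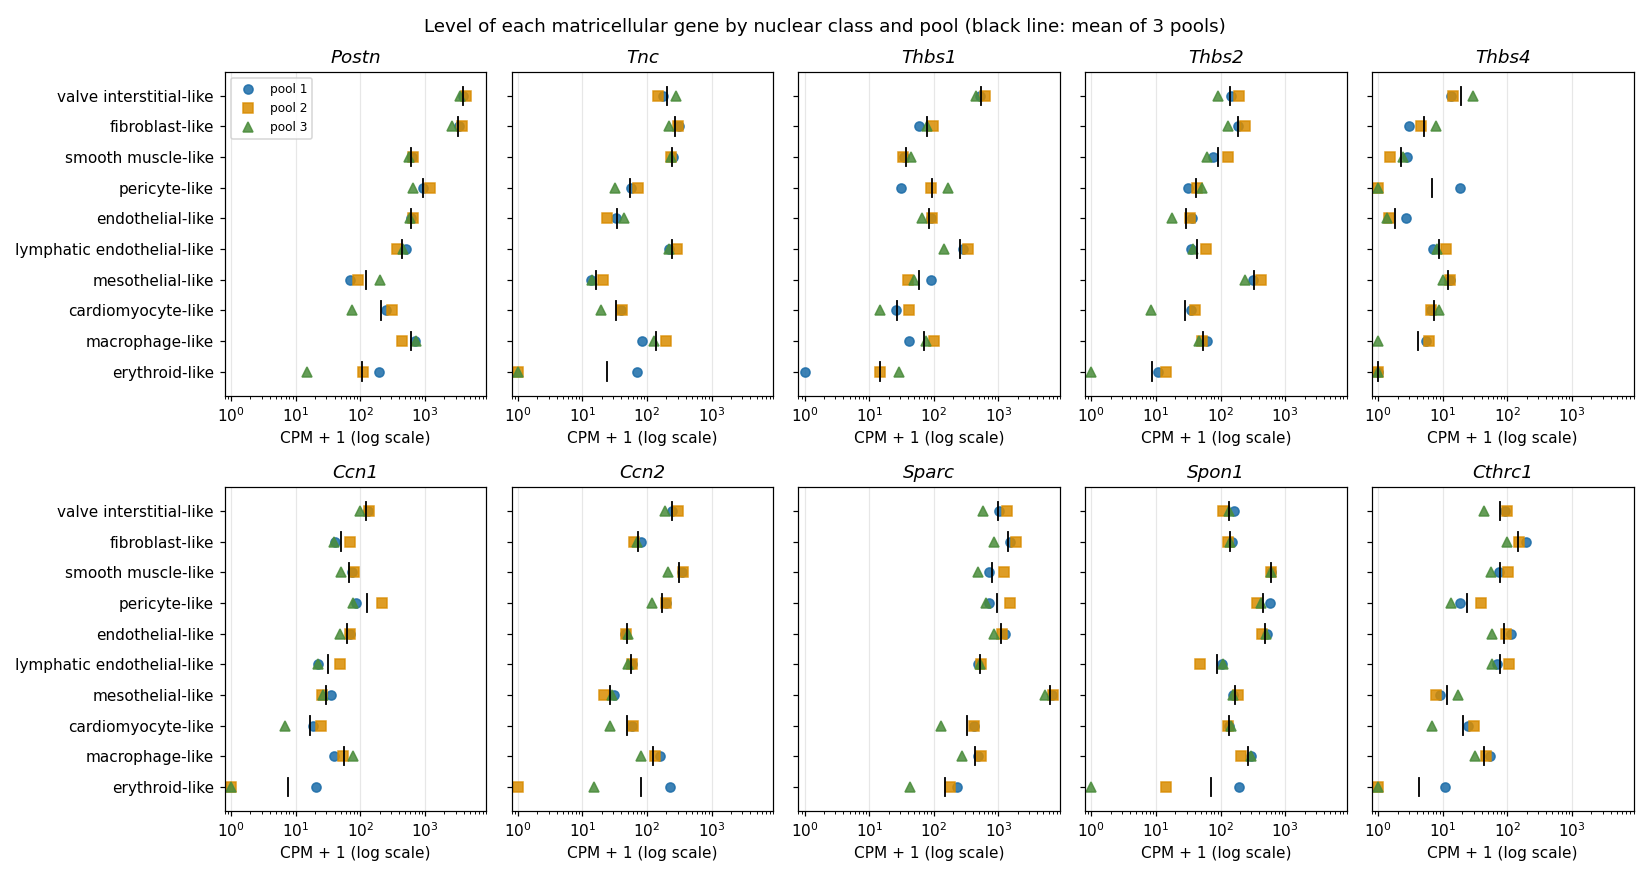
Level of each of the 10 genes (CPM + 1, log axis) in the 10 nuclear classes, 1 point per pool, with a black line at the mean of 3 pools. Postn is high in the valve interstitial-like and fibroblast-like rows, Thbs1 in the valve interstitial-like row (450 to 616 CPM), Sparc in the mesothelial-like row (5256 to 6998 CPM) and Spon1 in the smooth muscle-like and endothelial-like rows.

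For 6 members pool 3 was the lowest of the 3 in most classes: for Sparc in 9 of 10 classes, for Thbs2 and Cthrc1 in 8, for Postn and Ccn1 in 7 and for Ccn2 in 6. For Tnc and Thbs1 it was the lowest in 4 classes each and the highest in 2 and 3. For Spon1 and Thbs4 it was the highest in 4 classes each and the lowest in 2 and 3. The count for Thbs4 includes the erythroid-like class, where no pool held a UMI. Pool 3 also had the shallowest median depth, and the part of depth in this was not tested. Free RNA in the droplets gives UMIs to nuclei that do not transcribe a gene, so shares of nuclei with a UMI, after thinning each nucleus to 1000 UMIs, were set beside those of macrophage-like nuclei (median depth 3507 UMIs) and cardiomyocyte-like nuclei (4913.5). Postn was seen in 83.9% ± 2.68 of valve interstitial-like nuclei (94.0% before thinning) and 85.2% ± 5.76 of fibroblast-like nuclei, against 26.3% of macrophage-like and 16.6% of cardiomyocyte-like nuclei. The endothelial-like share of Postn, 28.7%, was close to the macrophage-like one for the class as a whole, whose clusters differed in Postn, as described further on. By the same measure Thbs1 was seen in 26.7% of valve interstitial-like, 6.30% of macrophage-like and 2.71% of cardiomyocyte-like nuclei. Its fibroblast-like (5.10%) and endothelial-like (5.09%) shares lay between these references and its smooth muscle-like share (2.54%) below both; the endothelial-like clusters differed in Thbs1, as described further on. Ccn2 was seen in 19.9% of smooth muscle-like and 15.1% of valve interstitial-like nuclei against 5.45% of macrophage-like and 5.65% of cardiomyocyte-like nuclei, with fibroblast-like (5.35%) and endothelial-like (2.61%) nuclei at background. Spon1 was seen in 39.7% of smooth muscle-like and 31.8% of endothelial-like nuclei, against 11.1% of macrophage-like and 11.3% of cardiomyocyte-like nuclei, and the valve interstitial-like (8.74%) and fibroblast-like (9.35%) shares were at background for each class as a whole; the clusters of the valve interstitial-like class differed in Spon1, as described further on. Tnc, at 15.5% of fibroblast-like, 14.5% of smooth muscle-like and 9.11% of valve interstitial-like nuclei, was above the macrophage-like 6.32% and the cardiomyocyte-like 3.15%, and endothelial-like nuclei (2.41%) were not. Thbs4 was seen in 2.01% of valve interstitial-like nuclei, against 0.653% of macrophage-like and 0.576% of cardiomyocyte-like nuclei.

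To ask where the members were enriched, each class was compared with the mean of the other 9 classes on UMI sums per pool and class (edgeR, quasi-likelihood, with the pool as a block), p-values were adjusted over 13480 genes, and all 10 members passed the filter on low counts. A gene is called when its adjusted p is under 0.05. The erythroid-like class, with few UMIs, enters each of these means, and the median log2 fold change of all genes was 0.23 to 0.31 rather than 0, so values are to be read against that shift. Without pool 1 the same medians were 0.57 to 0.65, so a value given without pool 1 in these comparisons is to be read against that larger shift. With that class left out the median for the valve interstitial-like comparison was 0.00, with 2658 genes higher and 2306 lower of 14187, and every called member kept its call and direction in all 6 such comparisons.

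In valve interstitial-like nuclei 8 members were higher and 1 was lower, against 21.1% of all genes called higher and 8.11% lower. The largest differences were those of Thbs1 (log2 fold change 2.99 ± 0.17, SE, adjusted p = 6.3e-18), Postn (2.90 ± 0.18, adjusted p = 6.1e-17) and Thbs4 (2.63 ± 0.44, adjusted p = 7.5e-06). Ccn1 (1.51), Ccn2 (1.41), Tnc (1.29), Thbs2 (1.24) and Cthrc1 (1.01) were also higher. Spon1 was lower, at -0.84, a call lost without pool 1 (-0.54, adjusted p = 0.18). Sparc missed the threshold at 0.16 ± 0.18 (adjusted p = 0.57). Since the erythroid-like class held no Thbs4 UMI, the fitted values of Thbs4 against a mean of classes depend on the prior count, and the direct comparisons given further on do not rest on that class.

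In smooth muscle-like nuclei 6 members were higher and 1 lower, with 26.3% of all genes higher and 7.83% lower. Ccn2 (1.93 ± 0.14, adjusted p = 7.7e-15), Spon1 (1.76 ± 0.13, adjusted p = 4e-14) and Tnc (1.74 ± 0.17, adjusted p = 6e-11) led, with Cthrc1 at 1.11, Ccn1 at 0.71 and Thbs2 at 0.65. Thbs1 was lower, at -1.12. Postn, Sparc and Thbs4 did not pass the threshold. Without pool 3 the call of Thbs1 was lost (-1.11, adjusted p = 0.12), and without pool 2 that of Thbs2 (0.55, adjusted p = 0.10). The Cthrc1 and Thbs2 calls were also lost when marked doublets were kept (0.33 and 0.23) and with coarser clusters (Leiden resolution 0.5; 0.44, adjusted p = 0.13, and 0.31, adjusted p = 0.22). That of Thbs2 was lost too at a minimum of 2000 UMIs (0.33, adjusted p = 0.064) and without the pool block (0.63, adjusted p = 0.098).

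In fibroblast-like nuclei 5 members were higher and 2 lower, with 17.7% of all genes higher and 5.87% lower. Postn (2.57 ± 0.18), Cthrc1 (2.05 ± 0.16), Tnc (1.76 ± 0.18), Thbs2 (1.64 ± 0.17) and Sparc (0.73 ± 0.17) were higher, with edgeR adjusted p of 0.00090 or below. Spon1 (-0.83) and Ccn2 (-0.62) were lower, and Thbs1, Ccn1 and Thbs4 did not pass the threshold. The calls of Spon1 and Ccn2 were lost without pool 1, at -0.41 for Spon1 (adjusted p = 0.35) and -0.20 for Ccn2 (adjusted p = 0.75), and Ccn2 also without pool 2 (-0.55, adjusted p = 0.067). The Ccn2 call was further lost with DESeq2 (-0.53), without the pool block (-0.63), at a minimum of 2000 UMIs (-0.34) and with the gene lists allowed in the clustering (-0.41). That of Sparc was lost without the block (0.74, adjusted p = 0.058).

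Mesothelial-like nuclei split the members: 3 were higher and 4 lower, with 33.5% of all genes higher and 12.8% lower. Sparc (3.45 ± 0.14, adjusted p = 7.4e-24), Thbs2 (2.81 ± 0.15) and Thbs4 (2.30 ± 0.54) were higher. Tnc (-2.67), Postn (-2.60), Cthrc1 (-2.30) and Ccn2 (-1.96) were lower. Thbs1, Ccn1 and Spon1 did not pass the threshold. Without pool 1 the calls of Tnc (-1.46, adjusted p = 1) and Cthrc1 (-1.29, adjusted p = 1) were lost.

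In endothelial-like nuclei 2 members were higher and 3 lower, with 23.5% of all genes higher and 7.15% lower. Cthrc1 (1.24 ± 0.16) and Spon1 (1.22 ± 0.14) were higher, and Postn, Thbs1, Thbs4, Ccn1 and Sparc did not pass the threshold. Tnc (-1.65), Thbs2 (-1.32) and Ccn2 (-1.23) were lower, and without pool 1 the calls of Tnc (-0.63, adjusted p = 1) and Ccn2 (-0.66, adjusted p = 0.16) were lost.

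In cardiomyocyte-like nuclei no member was higher and 8 were lower, with 31.4% of all genes higher and 14.9% lower. The lowest were Thbs1 (-1.51), Postn (-1.49), Ccn1 (-1.45), Sparc (-1.34) and Tnc (-1.28), followed by Thbs2 (-1.10), Ccn2 (-0.88) and Spon1 (-0.47). Thbs4 went the other way but missed the threshold (1.38 ± 0.59, adjusted p = 0.054); it passed as higher in 8 of 15 alternatives (0.73 to 2.28). The Spon1 call was lost without the pool block (-0.48, adjusted p = 0.087). Without pool 1 Ccn1 (-0.73), Ccn2 (-0.51) and Tnc (-0.39) lost their calls and Spon1 stood at 0.041, where the median of all genes had moved from 0.23 to 0.57, and without pool 3 Thbs1 lost its call (-1.10, adjusted p = 0.098). Within this class several members had a higher level in 1 cluster of 580 nuclei led by Mb and Fabp3, with a median of 1853 UMIs and 310, 220 and 50 nuclei in pools 1, 2 and 3. There Sparc stood at 1899 ± 490 CPM and Postn at 1159 ± 491, against 95.1 and 64.3 CPM in the largest cardiomyocyte-like cluster, led by D830005E20Rik and Fgf13. Tnc, Thbs1, Thbs2, Ccn2 and Cthrc1 were also higher there in each pool than in any pool of the largest cluster, while Ccn1, Spon1 and Thbs4 overlapped between these clusters. Of the 10 smooth muscle markers only Acta2, Tagln and Cnn1 reached the limits used for naming in the Mb cluster (10% of nuclei and 2-fold), and the others did not. The part of free RNA in the member levels of this cluster was not tested. With that cluster left out, the 8 calls stayed, and Cthrc1, which had missed the threshold at -0.84, was lower as well (-2.33, adjusted p = 0.00033), while Thbs4 was higher (1.53, adjusted p = 0.019).

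Direct comparisons separated the valve interstitial-like class from its neighbours in tissue. Against fibroblast-like nuclei 4 members were higher and 1 lower, where 8.23% of all genes were higher and 8.46% lower. Thbs1 (2.84 ± 0.27, adjusted p = 3.7e-11), Thbs4 (2.24 ± 0.48, adjusted p = 0.00048), Ccn2 (1.83 ± 0.23, adjusted p = 2.6e-08) and Ccn1 (1.43 ± 0.20, adjusted p = 2.9e-07) were higher, and Cthrc1 was lower (-0.94 ± 0.16, adjusted p = 1.9e-05). Postn did not pass the threshold (0.29 ± 0.29, adjusted p = 0.61), nor did Sparc (-0.51 ± 0.23), Tnc (-0.42 ± 0.23), Thbs2 (-0.35 ± 0.18) and Spon1. Without pool 3 Tnc was lower (-0.85, adjusted p = 0.00019). At most 1% mitochondrial UMIs Sparc (-0.67, adjusted p = 0.0020) and Thbs2 (-0.59, adjusted p = 0.017) were lower, and Thbs2 also with the Mb cluster left out (-0.35, adjusted p = 0.048).

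Against smooth muscle-like nuclei 5 members were higher and 1 lower, where 13.5% of all genes were higher and 13.9% lower. Thbs1 (3.71 ± 0.27), Thbs4 (3.31 ± 0.45) and Postn (2.51 ± 0.30) were higher by more than 2 on the log2 scale, Ccn1 (0.72 ± 0.16) and Thbs2 (0.54 ± 0.18) by less. Spon1 was lower (-2.34 ± 0.21, adjusted p = 1.7e-12). The Thbs2 call was lost without pool 1 (0.40, adjusted p = 0.29), without pool 2 (0.62, adjusted p = 0.054), with DESeq2 (0.55, adjusted p = 0.095), at most 1% mitochondrial UMIs (0.26, adjusted p = 0.27) and without the pool block (0.54, adjusted p = 0.28). The Ccn1 call was lost with coarser clusters (Leiden resolution 0.5; 0.35, adjusted p = 0.097) and without the block (0.73, adjusted p = 0.051). Ccn2 missed the threshold (-0.47 ± 0.19, adjusted p = 0.065) but passed it as lower in 7 of 16 alternatives, at -0.44 to -0.99, among them without pool 3 (-0.55, adjusted p = 0.0054) and with the coarser clusters (-0.99, adjusted p = 0.00014). Tnc, which missed it as well, was lower without pool 3 (-0.72, adjusted p = 0.00061) and in 4 other alternatives. Sparc and Cthrc1 did not pass the threshold.

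Against endothelial-like nuclei 7 members were higher and 1 lower, where 18.8% of all genes were higher and 21.1% lower. Thbs4 (3.92 ± 0.44), Thbs1 (2.68 ± 0.24), Postn (2.65 ± 0.31), Tnc (2.65 ± 0.25), Ccn2 (2.38 ± 0.21) and Thbs2 (2.30 ± 0.20) were far higher and Ccn1 (0.98 ± 0.16) less so. Spon1 was lower (-1.86 ± 0.20), and Sparc and Cthrc1 did not pass the threshold. No call was lost without 1 pool.

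Smooth muscle-like nuclei were also compared with fibroblast-like nuclei, where 13.8% of all genes were higher and 13.3% lower. Spon1 (2.33 ± 0.21), Ccn2 (2.30 ± 0.22) and Ccn1 (0.72 ± 0.20) were higher, and Postn (-2.21), Thbs2 (-0.89), Thbs1 (-0.87), Cthrc1 (-0.84) and Sparc (-0.66) lower, while Tnc and Thbs4 did not pass the threshold. Without pool 1 the calls of Ccn1 (0.46), Cthrc1 (-0.53) and Sparc (-0.55) were lost, without pool 2 that of Thbs1 (-0.66), and without pool 3 that of Sparc (-0.67). With DESeq2 the calls of Ccn1 (0.65, adjusted p = 0.091) and Thbs1 (-0.91, adjusted p = 0.095) were lost, and with doublets kept that of Ccn1 (0.48, adjusted p = 0.083). Sparc lost its call at a minimum of 500 UMIs (-0.41, adjusted p = 0.19), and at most 1% mitochondrial UMIs both Sparc (-0.38, adjusted p = 0.059) and Cthrc1 (-0.42, adjusted p = 0.13) did. Without the pool block Ccn1 (0.66), Thbs1 (-0.91) and Sparc (-0.65) missed the threshold.

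**Figure D2:**
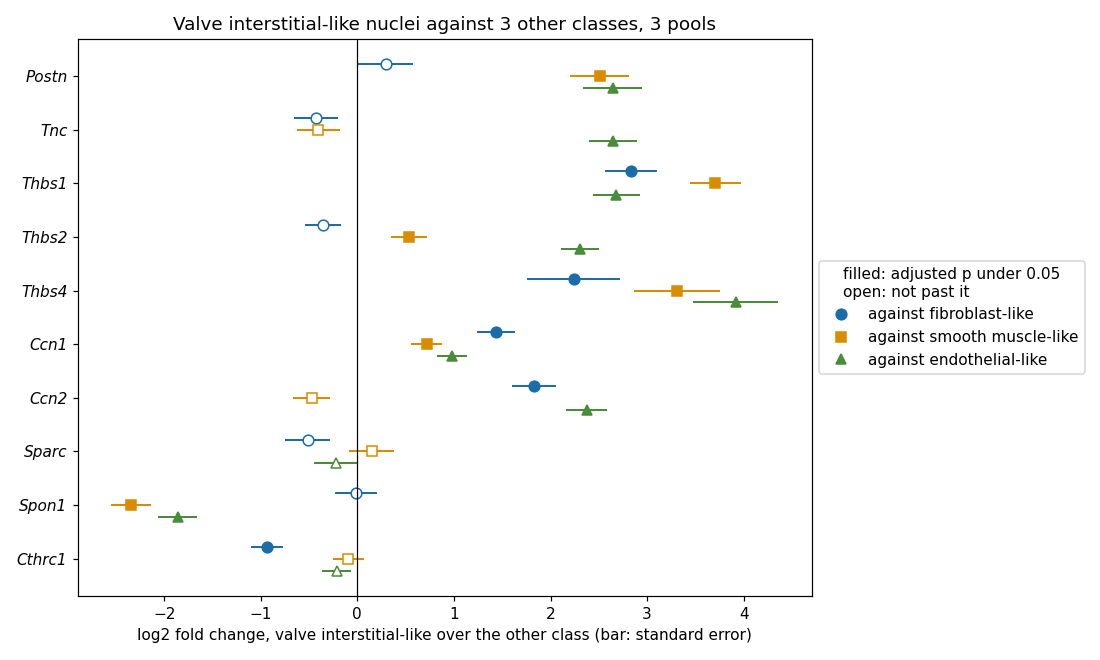
Log2 fold change of each gene in valve interstitial-like nuclei over fibroblast-like, smooth muscle-like and endothelial-like nuclei (edgeR, 3 pools, bars are standard errors, filled symbols have an adjusted p under 0.05). Thbs1, Thbs4 and Ccn1 lie to the right of 0 in all 3 comparisons, and Spon1 lies at -2.34 against smooth muscle-like nuclei.

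Lists of related genes give the surroundings of these members. Their counts are to be read against all genes, of which 21.1% were higher and 8.11% lower in valve interstitial-like nuclei, 26.3% and 7.83% in smooth muscle-like nuclei, and 17.7% and 5.87% in fibroblast-like nuclei. Among 18 TGF-beta response genes, 16 were higher and none lower in valve interstitial-like nuclei against the mean of the other classes, with a median log2 fold change of 0.95 against 0.24 over all genes. They were led by Ltbp2 (2.33 ± 0.14), which binds elastic microfibrils, and by Loxl2 (1.87 ± 0.16), a collagen cross-linking enzyme. In smooth muscle-like nuclei 13 of the 18 were higher and 2 lower, among them Ltbp2 (1.82 ± 0.14) and Ltbp1 (1.44 ± 0.12), which binds latent TGF-beta, on the higher side. Of 25 YAP and TEAD pathway genes, 8 were higher and 2 lower in valve interstitial-like nuclei (median 0.30), with Tead2 (1.81 ± 0.24) and Wwtr1, which encodes TAZ (0.94 ± 0.14), among the higher ones and Crim1 (-0.95 ± 0.17) lower. In smooth muscle-like nuclei 8 were higher and 1 lower (median 0.22, against 0.28 over all genes), among them Vgll3 (2.30 ± 0.14) and Tead3 (2.47 ± 0.20). The medians of this list were thus close to those of all genes in both classes.

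Of 22 receptor genes for matricellular proteins, 11 were higher and 6 lower in valve interstitial-like nuclei, with a median of 0.29 against 0.24 over all genes. The thrombospondin receptor gene Cd36 (-2.90 ± 0.25) and Stab1, a scavenger receptor for SPARC (-2.20 ± 0.34), were lower, and Ror2, a Wnt receptor (2.75 ± 0.21), and Itga2, a collagen-binding integrin subunit (1.92 ± 0.37), were higher. In smooth muscle-like nuclei 10 were higher and 3 lower (median 0.54 against 0.28 over all genes), and Itga4 (3.77 ± 0.15) and Itga8 (3.55 ± 0.20) differed most. Of 20 other matricellular genes 14 could be tested. In valve interstitial-like nuclei 4 were higher, with Tgfbi at 3.28 ± 0.20 and Comp, a relative of Thbs4, at 2.50 ± 0.59, and 3 were lower, with Ccn3 at -1.82 ± 0.21; the median was 0.17 against 0.24 over all genes, and the share called higher was near the 21.1% of all genes. In fibroblast-like nuclei 8 were higher and none lower (median 1.36 against 0.23 over all genes), led by Tnxb (4.45 ± 0.16) and Spon2 (3.78 ± 0.32).

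Large contrasts were also found inside the valve interstitial-like class, between a cluster of 989 nuclei led by Ctnna2 and Abi3bp and one of 486 nuclei led by Rmst and Adamts19. The members and the gene lists were kept out of the clustering; the genes used come from the same nuclei, so the tests describe clusters drawn on these data. The first cluster had 6 members higher and 2 lower, where 7.40% of 9961 genes were higher and 7.54% lower. Thbs4 is 1 of the 6 but passed the filter on low counts only through this cluster, so its call adds nothing to the count; of the other 9 members 5 were higher. Tnc stood at 287, 208 and 450 CPM in the Ctnna2 cluster and at 16.7, 34.7 and 11.4 in the Rmst cluster, a log2 fold change of 3.88 ± 0.23 (edgeR adjusted p = 1.9e-10). Every pool of the first lay far above every pool of the second. Tenascin C is known from matrix under tension or being remodelled, and neither was measured here.

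Thbs4 gave 95 UMIs in the Ctnna2 cluster (20.9, 20.2 and 47.0 CPM) and 0 in the Rmst cluster. Against the limit of 1.36 CPM that 3 counts over the whole Rmst cluster allow, it was at least 19.7-fold higher. This bound fell to 11.5 without pool 1, 16.4 without pool 2 and 11.6 without pool 3. The limit rises with fewer UMIs, and without pool 3 the pooled level in the Ctnna2 cluster also fell, from 26.8 to 20.6 CPM. All Thbs4 UMIs of the class thus came from the Ctnna2 cluster. Both CCN genes were higher as well. Ccn1 stood at 198, 176 and 130 CPM against 37.8, 63.9 and 43.7 (1.87 ± 0.17, adjusted p = 7.7e-08). Ccn2 stood at 349, 382 and 276 CPM against 81.8, 146 and 55.1 (1.86 ± 0.14, adjusted p = 6.3e-09). Neither gene's pools overlapped between the clusters.

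Thbs1 stood at 722, 746 and 602 CPM against 228, 369 and 209 (1.38 ± 0.11, adjusted p = 1.8e-08), and was itself among the 10 genes that marked the Ctnna2 cluster most. Spon1 was higher at 224, 148 and 182 CPM against 69.5, 29.2 and 57.0 (1.79 ± 0.15, adjusted p = 1.8e-08). The share of valve interstitial-like nuclei with a Spon1 UMI was at background, and macrophage-like nuclei held 297, 204 and 300.3 CPM of Spon1 as sums and 123 CPM as a mean over nuclei; the part of free RNA in the cluster difference was not tested. Postn was slightly lower, at 3610, 3680 and 3329 CPM against 4252, 5406 and 3634 (-0.33 ± 0.08, adjusted p = 0.0071). So was Sparc (-0.26 ± 0.09, adjusted p = 0.045). The Postn call was lost without pool 2 (-0.21, adjusted p = 0.17) and without the pool block (-0.35, adjusted p = 0.31). The Sparc call was lost without pool 1 (-0.25) or pool 2 (-0.18), with DESeq2 (-0.27) and without the block (-0.29). Thbs2 lay at 142 ± 48.4 and 139 ± 53.0 CPM. Cthrc1 missed the threshold (0.52 ± 0.18, adjusted p = 0.055) and passed it without pool 2 (0.76, adjusted p = 0.0047) or pool 3 (0.57, adjusted p = 0.025), or with no filter on low counts (0.54, adjusted p = 0.030).

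Other genes moved with the same split, where 7.40% of all genes were higher and 7.54% lower. Of 18 TGF-beta response genes 9 were higher and 2 lower in the Ctnna2 cluster (median 0.32 against 0.01 over all genes), among them Ltbp2 (1.96 ± 0.13) and Tgfb2 (0.80 ± 0.12) on the higher side. Of 21 YAP and TEAD pathway genes tested of 25, 8 were higher and 3 lower (median 0.34), led by Vgll3 (3.47 ± 0.40), Nt5e (1.89 ± 0.43) and Ankrd1, a known YAP target (1.78 ± 0.30). Of the receptors, 6 were higher and 3 lower of 20 tested (median 0.19), with Itga9, an integrin subunit that binds tenascin C, at 1.26 ± 0.16. Of the other matricellular genes 8 could be tested, of which 2 were higher and 1 lower (median 0.11); Ccn4 was higher (2.64 ± 0.33) and Smoc1 lower (-1.19 ± 0.22).

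Measures of nuclear state and of other cell types are set beside this. Of 15 immediate early and stress genes tested, which dissociation can raise, 3 were higher (Nr4a1, Nr4a2 and Egr1) and none lower in the Ctnna2 cluster. Of all genes 7.40% were higher and 7.54% lower. The median log2 fold change of the list was 0.57 against 0.01 over all genes. The 22 genes of the list summed to 471, 633 and 588 CPM in the Ctnna2 cluster and 357, 570 and 310 in the Rmst cluster. The 10 fibroblast markers summed to 1760 to 2431 CPM in the Ctnna2 cluster and 3115 to 5632 in the Rmst cluster, against 4845 to 5926 in fibroblast-like nuclei, and the 10 valve interstitial markers to 4707 to 5164 and 6227 to 7478. The 10 smooth muscle markers summed to 1188 to 1505 and 881 to 1191 CPM, against 5654 to 5914 in smooth muscle-like nuclei, and the 9 macrophage and 9 mesothelial markers to at most 23.3 and 17.9. The 14 endothelial markers summed to 832 to 913 CPM in the Ctnna2 cluster and 542 to 623 in the Rmst cluster, with no overlap, against 7856 to 8205 in endothelial-like nuclei. The 11 cardiomyocyte markers summed to 789 to 1500 and 490 to 1037 CPM, against 40384 to 41510 in cardiomyocyte-like nuclei. Median depth was 3279 UMIs in the Ctnna2 cluster and 4216.5 in the Rmst cluster. The part of any of these in the member differences was not tested.

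Smooth muscle-like nuclei also fell into 2 clusters, 1 of 1626 nuclei led by Clca3a2 and Pi15 and 1 of 1346 led by Mylk4 and Ptprz1. Thbs4 did not pass the filter there; of the other 9 members 1 was higher and 4 lower in the Clca3a2 cluster, where 11.4% of 10250 genes were higher and 10.4% lower. Ccn2 stood at 167, 142 and 123 CPM in the Clca3a2 cluster and 517, 609 and 360 in the Mylk4 cluster (-1.79 ± 0.08, adjusted p = 6.2e-39). Tnc stood at 149, 117 and 162 against 349, 361 and 358 (-1.35 ± 0.09, adjusted p = 5e-28), and Ccn1 at 53.6, 45.1 and 34.0 against 89.5, 117 and 76.2 (-1.04 ± 0.14, adjusted p = 4.6e-10). For these 3 genes the pools did not overlap. Tnc, Ccn1 and Ccn2 were therefore higher in the Mylk4 cluster of smooth muscle-like nuclei and in the Ctnna2 cluster of valve interstitial-like nuclei.

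Postn was a little lower in the Clca3a2 cluster (-0.35 ± 0.07), a call lost without pool 1 (-0.24, adjusted p = 0.060) and without the pool block (-0.34, adjusted p = 0.12). Cthrc1 was higher (0.99 ± 0.14, adjusted p = 2.9e-09), at 108, 114 and 66.5 CPM against 40.4, 84.5 and 34.4, a call lost without the block (0.88, adjusted p = 0.086). Spon1, by contrast, lay at 637 ± 31.9 and 582 ± 44.8 CPM, and did not pass the threshold. Ltbp2 (-1.13 ± 0.10) and Tgfb2 (-1.13 ± 0.07) were among 8 of 17 TGF-beta response genes that were lower, with 3 higher, where 11.4% of all genes were higher and 10.4% lower. Also lower were Crim1 (-1.46 ± 0.08) and Lats2 (-0.83 ± 0.11), among 8 of 21 YAP and TEAD pathway genes, with 3 higher. Itga8, an integrin subunit that binds tenascin C (-1.78 ± 0.05), and Itga9 (-1.10 ± 0.06) were among 6 of 20 receptor genes tested that were lower, with 6 higher (median 0.11 against 0.04 over all genes). The immediate early genes summed to 294 to 419 CPM in the Clca3a2 cluster and 295 to 447 in the Mylk4 cluster.

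**Figure D3:**
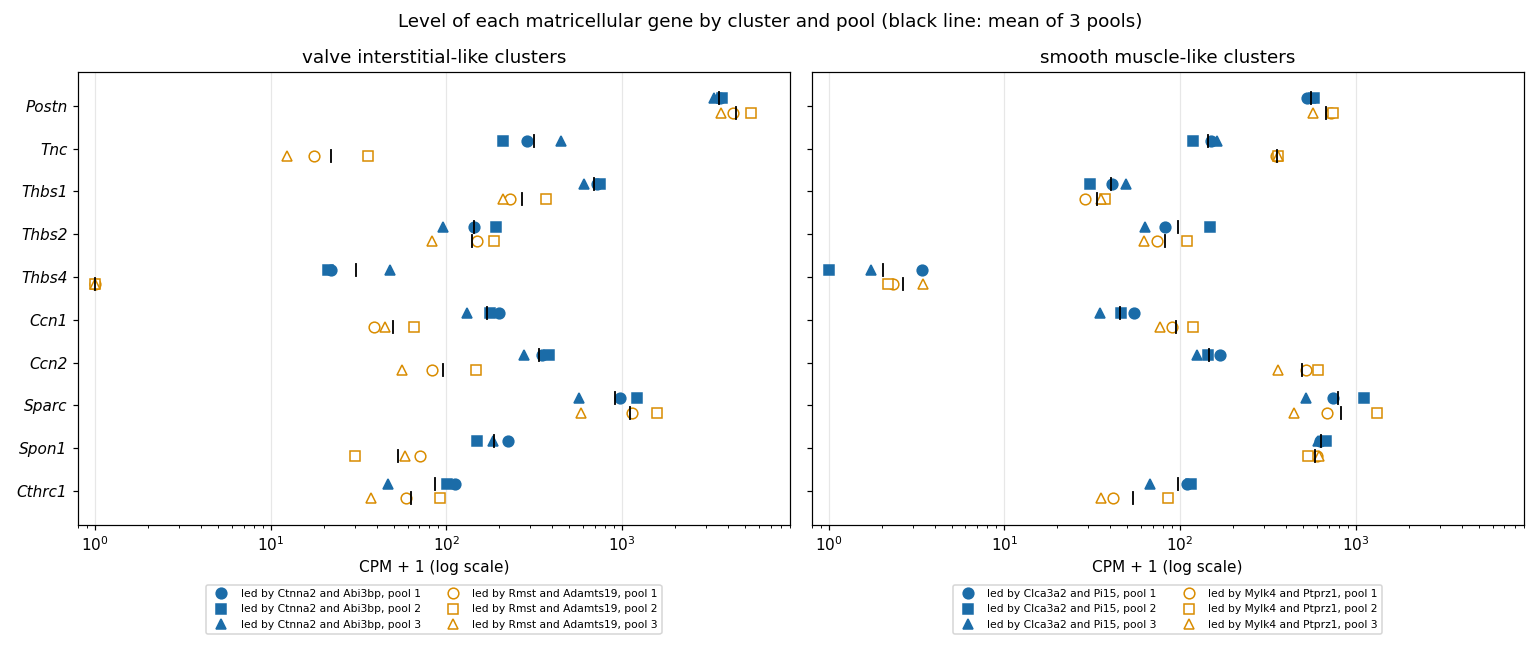
Level of each gene (CPM + 1, log axis) in the clusters of the valve interstitial-like class (left) and of the smooth muscle-like class (right), 1 symbol per pool and a black line at the mean. On the left Tnc, Thbs1, Thbs4, Ccn1, Ccn2 and Spon1 show no overlap between clusters; on the right Tnc, Ccn1 and Ccn2 show none.

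Endothelial-like nuclei held 6 clusters with at least 20 nuclei in each pool, and each was compared with the mean of the other 5; Thbs4 was not tested. The cluster led by Cytl1 and Rtl4 (754 nuclei; 20.2% of 10280 genes called in either direction) had 4 members higher and 1 lower. Its Spon1 level of 859, 808 and 951 CPM lay above every pool of the other clusters (1.98 ± 0.12, adjusted p = 2.8e-13). Cthrc1 stood at 190, 151 and 119 CPM (1.54 ± 0.13) and Ccn1 at 108, 90.7 and 99.6 CPM (1.19 ± 0.20), with Sparc higher (0.69 ± 0.08) and Postn lower (-0.99 ± 0.19).

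The cluster led by Dlgap2 and Cntnap5a (254 nuclei; 23.6% of genes called) stood out for Postn, at 1638, 1650 and 1669 CPM (1.82 ± 0.16, adjusted p = 5.5e-10), above the 933, 772 and 840 CPM of the cluster next in order, led by Kcnc2 and Fam155a. Thbs1 was higher there (0.75 ± 0.25), a call lost without pool 1 (0.62) or pool 3 (0.67) and with DESeq2 (0.76), and Spon1 (-1.31 ± 0.18) and Sparc (-1.14 ± 0.10) were lower. The cluster led by Pcdh17 and Aplnr (239 nuclei; 28.6% called) was the one with more Ccn2, at 94.5, 77.6 and 136 CPM (1.40 ± 0.22, adjusted p = 1.1e-05), and more Tnc (1.79 ± 0.37), whose pools ranged from 27.7 to 171 CPM. Sparc was higher (0.62 ± 0.08), and Spon1 (-1.85 ± 0.19), Thbs1 (-1.06 ± 0.32) and Cthrc1 (-0.87 ± 0.22) were lower. Without pool 1 the calls of Thbs1 (-0.50) and Cthrc1 (-0.90) were lost. Macrophage-like nuclei, the background reference, held 159, 134 and 80.2 CPM of Ccn2 and 84.1, 199 and 125 CPM of Tnc as sums. Their means over nuclei were 72.9 and 84.3 CPM. The part of free RNA in the Ccn2 and Tnc differences of the Pcdh17 cluster was not tested.

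Of the remaining clusters, that led by Grid1 and Col23a1 (28.3% called) had Spon1 higher (1.15 ± 0.13) and Sparc (-0.64 ± 0.09) and Thbs2 (-1.10 ± 0.24) lower, the last lost without pool 1 (-0.88, adjusted p = 0.093). That led by Kcnc2 and Fam155a (25.1% called) had Postn (0.69), Spon1 (0.64), Thbs1 (0.64) and Thbs2 (0.74) higher. Without pool 1 Postn lost its call (0.63) and Thbs1 stood at -0.052, and without pool 2 Thbs2 lost its call (0.69). Thbs1 also lost its call there with DESeq2 (0.56), and without the pool block Thbs1 (0.62) and Thbs2 (0.70) did. That led by Mannr and Ptchd1 (21.0% called) had Sparc higher (0.47 ± 0.08) and Postn (-1.16), Thbs1 (-1.15) and Spon1 (-0.61) lower. There Spon1 lost its call without pool 1 (-0.33) or pool 3 (-0.45), and Thbs1 without pool 3 (-0.92).

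**Figure D4:**
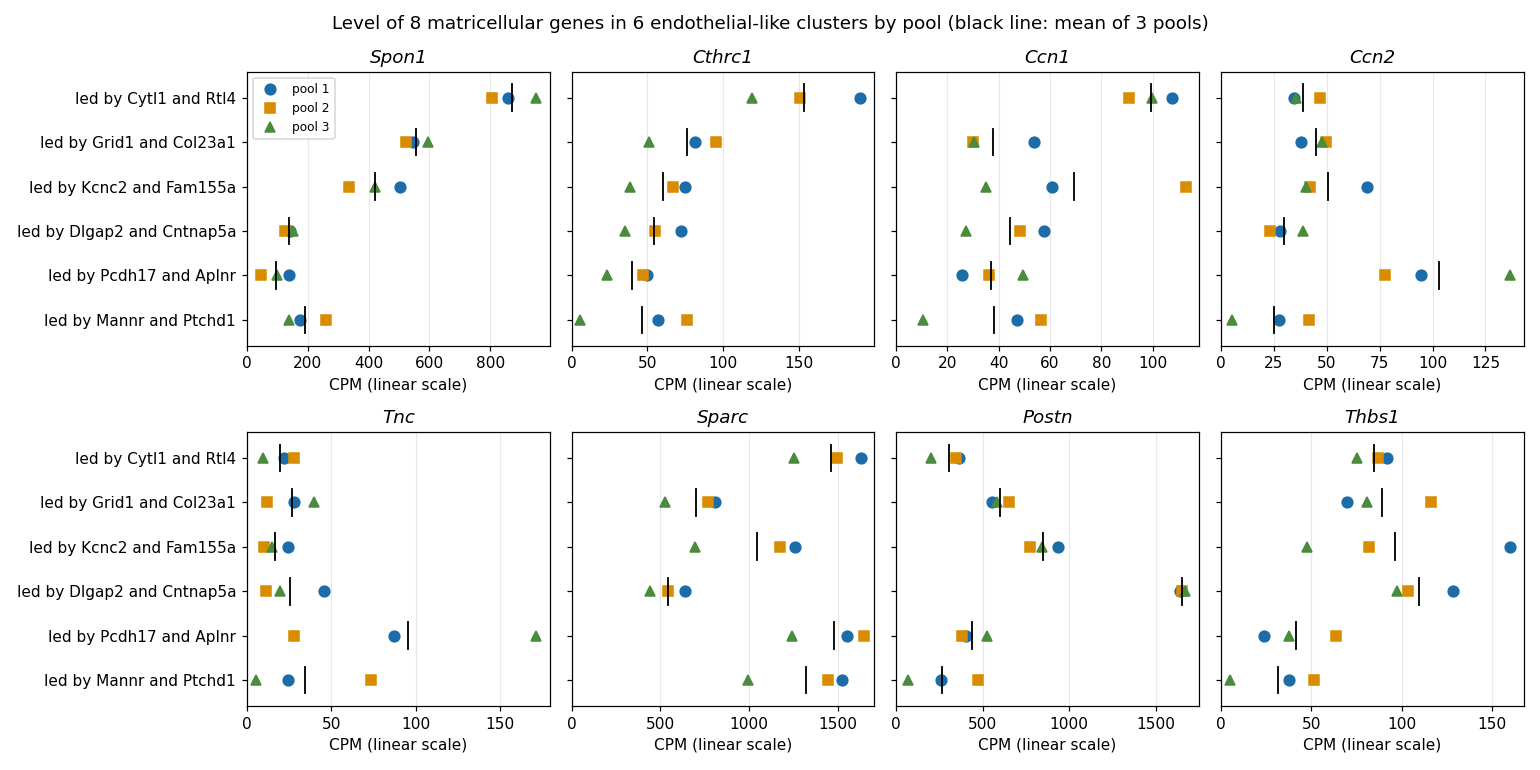
Level of 8 genes (CPM, linear axis from 0) in 6 endothelial-like clusters, named by their leading genes, 1 point per pool and a black line at the mean. Spon1, Cthrc1 and Ccn1 are highest in the Cytl1 cluster, Postn in the Dlgap2 cluster (1638 to 1669 CPM) and Ccn2 in the Pcdh17 cluster.

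The EGFP allele lies at the Scx locus, and a single EGFP UMI can also come from free RNA. Nuclei with an EGFP UMI made up 10.3% ± 3.48 of valve interstitial-like nuclei (median depth 3607 UMIs), against 2.45% ± 2.13 of macrophage-like and 1.96% ± 0.777 of cardiomyocyte-like nuclei, and 5.37% ± 1.59 of endothelial-like nuclei. After thinning to 1000 UMIs the shares were 3.28%, 0.407%, 0.472% and 1.70%. The nuclei below are thus those with an EGFP UMI, and how many of them hold it as background was not determined. In the valve interstitial-like class 75, 48 and 29 nuclei of pools 1, 2 and 3 held an EGFP UMI, and each was matched by UMI total to a nucleus without one in the same pool. Of 9 members tested Ccn2 (1.21 ± 0.19, adjusted p = 0.0083) and Ccn1 (1.28 ± 0.24, adjusted p = 0.032) were higher, where 0.221% of 4981 genes were called in either direction. EGFP nuclei lay in the Ctnna2 cluster in 73.3%, 70.8% and 86.2% of cases and matched nuclei in 58.7%, 68.8% and 58.6%. When nuclei were matched within clusters, neither gene passed the threshold (Ccn1 0.91, adjusted p = 0.24; Ccn2 0.62, adjusted p = 0.73). Both also missed it without the pool block (Ccn1 1.26, adjusted p = 0.39; Ccn2 1.22, adjusted p = 0.35) and with DESeq2 (Ccn1 1.23, adjusted p = 1.00; Ccn2 1.22, adjusted p = 0.45). Ccn1 also missed it without pool 1 (1.15, adjusted p = 0.19) or pool 2 (1.16, adjusted p = 0.11), while without pool 3 Thbs1 was also higher (1.15, adjusted p = 0.0032) and Tnc lower (-1.51, adjusted p = 0.0043).

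Across the 30 sums of pool and class, the genes whose log2 levels followed each member most closely were named by Pearson's r, after removal of pool means, as a description. The 30 points share pools and depth. Thbs2 followed the fibrillar collagen genes Col3a1 (0.961), Col1a1 (0.957) and Col1a2 (0.949). Sparc followed Serpinh1, the collagen chaperone HSP47 (0.923), Syne2 (0.919) and Hspa5 (0.915), and Postn followed Gpm6b (0.932), Dpt (0.925) and P3h2, a collagen prolyl hydroxylase (0.916). Ccn1 followed Sh3rf1 (0.960), Rhbdf1 (0.948) and Syde1 (0.941), Ccn2 followed Adgrl2 (0.935), Wwp2 (0.918) and Picalm (0.912), and Tnc followed Rnaseh2b (0.903), Sh3pxd2a (0.895) and Dpysl3 (0.892).

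Spon1 followed St6gal1 (0.929), Ppp1r12a (0.915) and Fam13c (0.908), and Cthrc1 followed Frem1 (0.934), Gab2 (0.932) and Rnf144a (0.913). Thbs1 followed LOC118567333 (0.857), Edil3 (0.835) and Megf11 (0.829), and Thbs4, with few UMIs, Bok (0.778), Nnat (0.745) and Stard10 (0.729). Between members the closest pairs were Tnc with Cthrc1 (0.867), Thbs2 with Sparc (0.855) and Ccn1 with Ccn2 (0.804), and the least alike was Thbs4 with Spon1 (-0.01).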

How the data were processed

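The authors deposited raw UMI counts per gene and nucleus for 3 pools, whose file headers name Cell Ranger 7.1.0; the submitters' processing notes also name Cell Ranger 7.0.1 and the build GRCm39, while the gene annotation is not given in the sources used here. The chromatin data of the multiome assay was not analysed here. The deposited counts total 49918251, 25341316 and 21254247 UMIs in 10580, 5949 and 4611 nuclei. Of these, 28.6%, 41.8% and 14.1% of nuclei exceeded 5% mitochondrial UMIs and were left out, as were nuclei under 1000 UMIs.

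Scrublet's own threshold marked 0, 0 and 1 doublets, so the highest-scoring 0.8% per 1000 nuclei were marked and removed (895, 283 and 170). Nuclei were clustered with scanpy 1.11.5 and leidenalg 0.10.2 (2000 variable genes, 30 components, 15 neighbours, resolution 1) without the members and gene lists, and clusters were named from at least 3 detected markers; 2 clusters stayed unnamed. Classes with 20 or more nuclei in every pool were summed per pool and tested with edgeR 4.0.16 in R 4.3.3 (TMM scaling, filterByExpr, quasi-likelihood test, Benjamini-Hochberg adjustment over all genes, threshold 0.05). Sums with the same pool number come from the same pooled tissue, so the pool was a block; SE is the fold change divided by the square root of F. DESeq2 1.42.0 was an alternative, with other depth, mitochondrial, doublet and clustering settings and each pool left out.

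The test was checked on simulated counts for the valve interstitial-like comparison (13480 genes, 200 changed): 71.5% of 2-fold and 88.5% of 4-fold changes were recovered, with 10.1% and 4.32% of calls false. For the EGFP comparison (4982 genes, 200 changed) it recovered 48% and 87%, with 3.03% and 4.40% false. Counting intervals are Wilson 95%, and the limit for 0 is 3 counts; both cover counting error only. All 10 members are named in every comparison of classes (in comparisons of clusters and of EGFP nuclei, those called and some others), and of each list up to 4 called genes with the largest change. The members and lists were chosen with earlier results of these data known. Sequences and symbols are from RefSeq.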

Additional observations from a re-analysis of the deposited data

Results flagged for a closer look

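Nuclei with more than 5% mitochondrial UMIs (3719 nuclei of at least 1000 UMIs, marked doublets left out) took no part in the comparisons, and every member was detected in them above the limit that a count of 0 allows. Pooled over the 3 pools, Sparc stood at 2610 CPM there against 1116 CPM in the nuclei analysed, Thbs1 at 209 against 100.1, Thbs2 at 161 against 80.8, Cthrc1 at 108 against 61.9 and Thbs4 at 13.3 against 5.03. Postn (1311 against 996.9), Ccn1 (83.7 against 55.6) and Ccn2 (173 against 138) were also higher, while Tnc (102 against 124) and Spon1 (289.7 against 331) were lower. Taken pool by pool, Ccn2 was lower in pool 3 (70.0 against 99.0 CPM) and Tnc higher in pool 2 (110.3 against 101.5), while the other 8 members kept the direction of the pooled values in each pool. These nuclei carry no class here, so the values describe a mixture whose makeup was not determined, and the part of RNA quality was not tested.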

How the results depend on the processing

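Of 111 called member values, 74 kept direction and call in every alternative run, and over 1355 alternative values 78 lost the call and 2 changed sign, both without pool 1: Spon1 in cardiomyocyte-like nuclei (-0.60 to 0.041 when 1 pool was left out) and Thbs1 in the Kcnc2 endothelial-like cluster (-0.052 to 0.97). Without pool 1 the median of all genes in the class comparisons with the mean of the others was 0.57 to 0.65. The alternatives of the report that leave out the erythroid-like class or the Mb cluster were chosen after seeing the data and lost no call. Without the replicate block, 17 calls were lost; the number of members called fell to 5 in smooth muscle-like against fibroblast-like nuclei, to 3 between the smooth muscle-like clusters and to 0 in the EGFP comparison. The EGFP comparison also had 0 members called when nuclei were matched within clusters and with DESeq2, and 1 to 4 when 1 pool was left out. Leaving out 1 pool gave 3 to 7 members called in endothelial-like, 5 to 9 in cardiomyocyte-like and 5 to 7 in smooth muscle-like against fibroblast-like nuclei. Of 71 values that missed the threshold, 70 of 718 alternatives changed sign, 1 of them past the threshold (Sparc in smooth muscle-like nuclei at most 1% mitochondrial UMIs, 0.47, adjusted p = 0.0012), and 78 passed it with the same sign. At 1% mitochondrial UMIs the mesothelial-like class was too small to test. Shares of valve interstitial-like nuclei with a UMI were all higher without thinning. Thbs4, with 349 UMIs in all, is limited by depth.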
